A study of Mus musculus with 4 samples.

Results

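The cells described here are the 896 in vitro-generated mouse myeloid-derived suppressor cells (MDSCs) that scored highest for 5 genes, Gpnmb, Atp6v0d2, Csf1, Ccl4 and Acod1, out of 8958 candidate cells in 4 single-cell libraries. Counts are of UMIs, unique molecular identifiers that each stand for 1 captured mRNA. A candidate cell had 200 or more detected genes, no more than 10% of its UMIs from mitochondrial transcripts and no UMI of the complement genes C1qa, C1qb or C1qc, which mark macrophages. Each cell was scaled to 10000 UMIs and log-transformed, the 5 genes were averaged, and the top 10% over all libraries were taken. They are called score-high cells below, and the remaining 8062 are called the other candidate cells. These cells were chosen by the measured values of the 5 genes, so every difference between them and the other candidate cells is given as a description, without a test.

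The cultures were started from bone marrow of young adult mice on a C57BL/6 background. All 4 received IL-6 and GM-CSF at 40 ng/mL each, and on day 4 live CD11b+ cells were sorted and captured on the 10x Genomics platform. The groups compared here were wild type (WT) + PBS and WT + ISO, where ISO is the β-adrenergic agonist isoproterenol at 10 µM. The other 2 libraries, 1 per treatment, came from mice of another genotype. Their cells took part in the choice of the score-high cells and in the values pooled over libraries. The groups come from the sample titles, since the treatment entry names isoproterenol for all 4 samples, and the study calls the cultures without ISO PBS. The number of donor mice behind a culture was not given in the sources used here, and the cell suspensions were pooled before capture. Each group was 1 library, so no comparison between groups has a replicate check and no p-value is given, and the 95% intervals below cover counting error only. Of pairs of values for the WT libraries, WT + PBS is given first.

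The WT files held 2232 and 2300 cells with 24423941 and 29484245 UMIs, of which 2142 and 2243 were candidate cells. The median cell that passed the filters held 8088.5 and 10252 UMIs, so it was higher in WT + ISO. Whether this came from sequencing depth or from the RNA content of the cells was not tested. No cell barcode was found in more than 1 library, and each library carried a different leading multiplexing tag, an oligonucleotide bound to the cell surface to mark its sample.

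MDSCs are immature neutrophil-like and monocyte-like cells that restrain T cells, and β-adrenergic signaling raises cyclic AMP in them. The 5 genes that define the score come from different programs. Gpnmb encodes a lysosomal and melanosomal membrane glycoprotein and Atp6v0d2 a subunit of the vacuolar proton pump (V-ATPase) that acidifies lysosomes, and both are known targets of the MiT/TFE transcription factors, which bind the sequence CACGTG. Csf1 encodes the growth factor of macrophages, Ccl4 a chemokine that attracts myeloid cells and lymphocytes, and Acod1 the mitochondrial enzyme that makes itaconate.

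Most score-high cells carried only some of the 5 genes. A UMI of exactly 1 of them was found in 267 cells (29.8%), of exactly 2 in 398 (44.4%), of 3 in 169 (18.9%), of 4 in 56 (6.25%) and of all 5 in 6 (0.670%). Gpnmb and Atp6v0d2 were found together in 124 cells. Conversely, 2039 of the other candidate cells (25.3%) held at least 1 UMI of the 5 genes.

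Ccl4 was the most widely detected of the 5 genes, with a UMI in 69.3% of score-high cells and in 10.0% of the other candidate cells. Csf1 was detected in 44.9% of score-high cells, Acod1 in 32.6%, Atp6v0d2 in 28.9% and Gpnmb in 27.9%. After each cell was thinned to 1000 UMIs, which left out 35 score-high and 52 other candidate cells that were shallower, these shares were 41.2% for Ccl4, 19.05% for Csf1, 13.7% for Acod1, 12.8% for Atp6v0d2 and 13.6% for Gpnmb, against 1.66%, 1.71%, 1.04%, 0.474% and 0.300% in the other candidate cells. A reference set was the 896 neutrophil-like candidate cells outside the score-high set with the highest levels of Retnlg, Mmp8, Mmp9, Ly6g and Cxcr2. They are called Retnlg-high cells below and had a median of 4602.5 UMIs, against 4305 in score-high cells. Their unthinned shares were 0.446% for Gpnmb, 0% for Atp6v0d2, 5.47% for Csf1, 6.25% for Ccl4 and 12.1% for Acod1. The thinned share of Acod1 was 3.81%. Since these cells were drawn from those the score left out, their low shares were set in part by the rule. By their own shares, the score-high cells were a graded set joined by any of several genes and no one of the 5 marked all of them.

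The limit between the sets was a score of 0.425 for the lowest score-high cell and 0.424 for the highest of the other candidate cells. The 20 cells just inside it had a median of 4019 UMIs and the 20 just outside 4100.5. A cell of at most 1358 UMIs could enter with a single UMI of the 5 genes. Of the candidate cells, 244 were that shallow, and 45 score-high cells (5.02%) held 1 such UMI in all.

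The score-high cells were low in RNA. Their median was 3917 UMIs against 9017 in the other candidate cells of WT + PBS and 5526 against 10734 in WT + ISO. Over all libraries the medians were 4305 and 8865 UMIs, a ratio of 0.486, and 1614.5 and 2422 detected genes. The score scales each cell by its depth, so depth is among the values that chose the cells. When members were instead required to hold at least 3 of the 5 genes the ratio was 0.932, and with Ccl4 left out of the score it was 0.405.

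The multiplexing tags were not used by the score and went the other way. Score-high cells carried a median of 1705 (WT + PBS) and 2205.5 (WT + ISO) tag UMIs, against 1168 and 1264 in the other candidate cells. The ratios were 1.46 and 1.74, and over all libraries the medians were 1787.5 and 1157 with a ratio above 1 in 4 of 4 libraries. The low mRNA count therefore did not come with a low tag count. Retnlg-high cells also held fewer mRNA UMIs and more tag UMIs than the other candidate cells, with ratios of 0.519 and 1.20 over all libraries. The share of a cell's tag UMIs on its leading tag had a median of 96.8% in score-high and 95.5% in the other candidate cells.

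**Figure D1:**
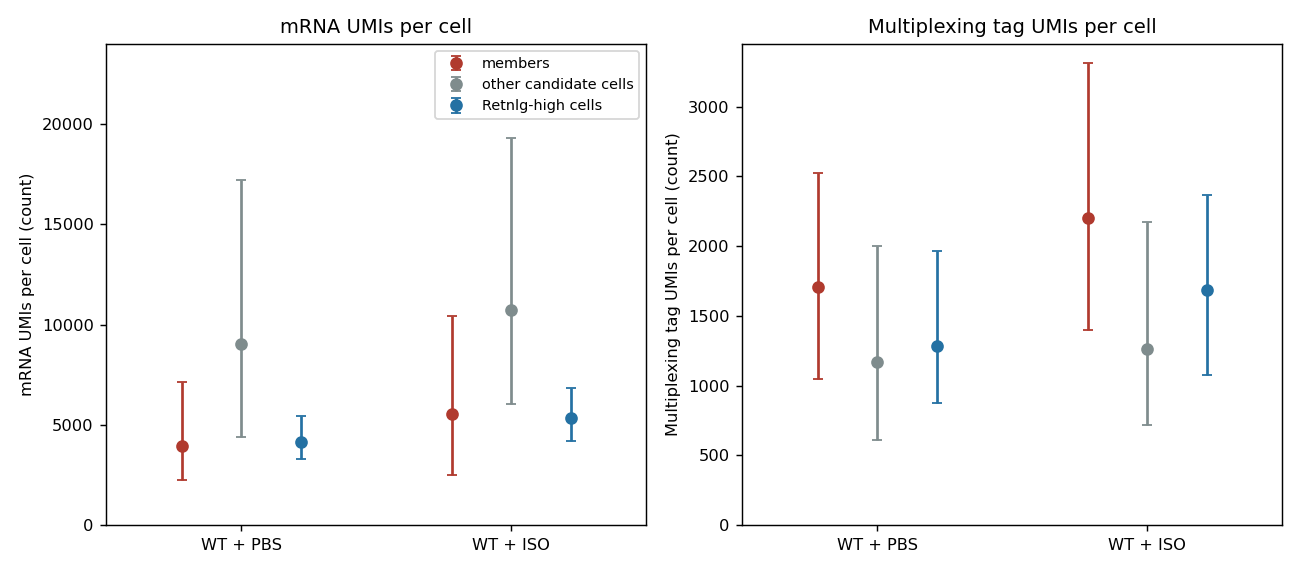
Median mRNA UMIs per cell (left) and multiplexing tag UMIs per cell (right) in the 2 WT libraries, with bars from the lower to the upper quartile over cells, for score-high cells ("members"), the other candidate cells and Retnlg-high cells. Score-high cells lie below the other candidate cells in mRNA UMIs (3917 against 9017 and 5526 against 10734) and above them in tag UMIs.

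Other signs of RNA quality did not all point the same way. Mitochondrial transcripts took a median of 2.12% of UMIs in score-high cells and 2.61% in the other candidate cells. Ribosomal protein transcripts took 8.54% and 12.1%. The nuclear RNA Malat1 took 1.34% and 0.603%, which made it higher in the score-high cells. The part that cell quality plays in the score was not tested.

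Some neutrophil genes split the score-high cells. The alarmins S100a8 and S100a9, the most abundant transcripts of neutrophil-like MDSCs, together took a median of 1.71% of UMIs per score-high cell, with quartiles at 0.380% and 12.3%. The median was 15.2% in the other candidate cells, 25.6% in Retnlg-high cells and 0.167% in 103 cells set aside with at least 10 C1q UMIs, which are the macrophage-like reference (C1q-high cells). Of this reference only 14 cells were from the WT + PBS library and 2 from that with ISO, and the rest came from the other genotype. The score-high cells thus spread from levels near those of C1q-high cells to levels of neutrophil-like cells.

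**Figure D2:**
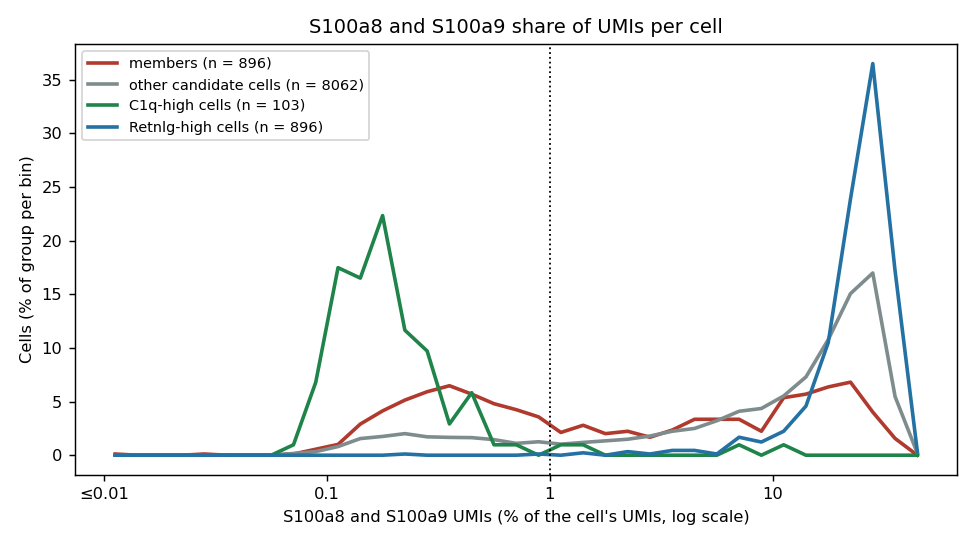
Percent of a cell's UMIs from S100a8 and S100a9 (log scale) against the percent of each group's cells per bin, for score-high cells ("members"), the other candidate cells, C1q-high and Retnlg-high cells. The dotted line marks 1%, and the score-high cells have cells on both sides of it, 401 below and 495 at or above.

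To describe the ends of this range, the score-high cells were divided at 1% S100a8 and S100a9 UMIs, a value set after the data were seen. It left 401 cells (44.8%) below and 495 at or above, and 175 cells (19.5%) lay between 0.5% and 2%, so the division cuts a range and does not define cell types. The share below 1% was 47.2% in the WT + PBS library against 41.1% with ISO, so both ends were present in both libraries.

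The S100-low side had macrophage-like and dendritic cell-like transcripts. Mrc1, the mannose receptor, stood at 189 CPM below 1% and 25.8 above. CPM here is the number of UMIs of a gene, or of a list of genes, per 1000000 UMIs of the cells summed. Cd74, the invariant chain of MHC class II, stood at 1329.8 and 316, and Itgax, the integrin CD11c, at 107 and 26.7. Spp1, the secreted phosphoprotein osteopontin, stood at 5868 and 2505. Gpnmb was at 370.0 and 154 and Atp6v0d2 at 231 and 76.3, so these genes of the score were higher on the S100-low side.

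The S100-high side held the neutrophil transcripts that define it and others as well. Retnlg, a secreted resistin-like protein of mature neutrophils, stood at 17.1 CPM below 1% and 513 above. Ly6g stood at 3.32 and 163, and Cxcr2, the neutrophil chemokine receptor, at 22.8 and 81.2. Not all neutrophil genes differed this much. Mmp8 stood at 1075 and 1286, Il1r2 at 592 and 663, and Trem1 at 71.2 and 77.7. Acod1 (94.9 below, 137 above) and Ccl4 (1085 and 1306) were also higher on this side. The S100-low cells had a median of 2818 UMIs and 1984 tags, and the S100-high cells 5076 UMIs and 1627 tags. Csf1r, the receptor of the macrophage growth factor, stood at 186 CPM (exact Poisson interval 168 to 206) in S100-low and 116 (105 to 128) in S100-high cells. Csf3r, the receptor of the granulocyte growth factor, stood at 132 (117 to 148) and 109 (98.3 to 121).

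The marker lists gave these cells no single cell type name. The 12 mature neutrophil markers summed to 75999.9 CPM in score-high cells, against 126571 in the other candidate cells and 264346 in Retnlg-high cells. S100a9 alone made up 52.4% of that sum. The 12 macrophage markers summed to 733 in score-high, 329 in the other candidate and 3216 in C1q-high cells. In score-high cells Cd68 was the most abundant, and the 3 C1q genes were at 0 by the rule. In C1q-high cells, which were chosen by these 3 genes, C1qa was at 272, C1qb at 1003 and C1qc at 362 CPM. Part of the gap to C1q-high cells was therefore set by the choice of cells. The dendritic cell markers summed to 843, of which Cd74 made 83.2%, against 581 in the other candidate cells and 5800.0 in C1q-high cells. They went both ways. Of 9 with enough UMIs, 3 were at least 1.5-fold higher than in the other candidate cells and 3 lower. Among the lower were H2-Aa (21.6 against 57.0 CPM) and Ccr7 (2.88 against 10.9).

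Osteoclasts are known for high Atp6v0d2, and their other markers were mixed. Calcr, the calcitonin receptor, and Oscar were at 0 UMIs, Acp5, the osteoclast acid phosphatase, had 18 UMIs over all score-high cells and Ctsk, the bone-resorbing cathepsin K, had 40 UMIs, 7.198 CPM against 1.38 in the other candidate cells. The fusion genes Dcstamp (24.3 against 7.92 CPM) and Ocstamp (3.42 against 0.317) were higher in score-high cells, though found in only 51 and 6 of them, and the transcription factor Nfatc1 was at 36.0 against 26.3. The osteoclast list summed to 409 CPM, of which Mmp9, which neutrophils also express, gave 199.6 and the score gene Atp6v0d2 135. Granule genes of early neutrophil precursors were low: Mpo was at 13.3 CPM against 318 in the other candidate cells and Elane at 74.9 against 1407. In the same list the granule membrane protein Cd63 (797 against 365 CPM) and the proteoglycan Srgn (1745 against 990.2), which many myeloid cells express, were higher. Lymphocyte markers summed to 4.50 CPM with Cd3e, Ms4a1 and Ncr1 at 0. No doublet caller was run.

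Chemokines, lysosomal genes and genes of activation were higher in the score-high than in the other candidate cells, and the counts of the lists that hold a score gene are given without it. Of 12872 genes with at least 50 UMIs, 18.5% were at least 1.5-fold higher in score-high than in the other candidate cells and 14.6% at least 1.5-fold lower. These percentages belong to the contrast that chose the cells, so nothing is read from the list counts below beyond their description. In each pair of CPM values the first is that of the score-high cells.

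Among 12 CC and CXC chemokines other than Ccl4, 11 were at least 1.5-fold higher and 1 lower, with a median log2 difference of 2.01. Ccl3, the closest relative of Ccl4, was at 1134 CPM against 121 (log2 3.23). Ccl2, which recruits monocytes, was at 89.8 against 10.4 (log2 3.11). Ccl9 was at 507 against 117 (log2 2.12) and the neutrophil attractant Cxcl3 at 62.6 against 13.4 (log2 2.22). Ccl6 made 66.9% of the list's sum in score-high cells. Chemokines encoded side by side have similar sequences, and how reads shared between them were counted is not given in the sources used here.

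Of 21 lysosomal proteases, lipases and membrane proteins other than Gpnmb, 16 were at least 1.5-fold higher and 0 lower, with a median log2 difference of 1.08. Lgmn, the lysosomal protease legumain, was at 76.1 CPM against 16.2. Psap, the precursor of the saposins that help to degrade sphingolipids, was the most abundant, at 2377 against 936. Of 15 V-ATPase subunits other than Atp6v0d2, 8 were higher and 0 lower, with a median of 0.59, and Atp6v0c, which forms the membrane ring of the pump, was at 1899.8 against 966. Among 12 MiT/TFE factors and autophagy genes 7 were higher and 0 lower.

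The promoters of these lysosomal genes are shown because both lists stood higher in the score-high cells and the MiT/TFE factors are known to bind CACGTG, and the 4 printed were picked among those with a match. In RefSeq promoter sequences of GRCm38.p6, from 250 bases before to 50 bases after a gene's start, CACGTG, which reads the same on both strands, was found in 7.15% of 32851 promoters. It was found in 7 of 20 promoters (35%) of the lysosomal list, where 17 of 22 genes had an entry. In the V-ATPase list, where 11 of 16 had one, it was found in 4 of 13 (30.8%). Genes were counted whether or not they were higher in score-high cells, so these shares describe the lists and not the cells. Lamp1, an abundant protein of the lysosomal membrane, had 4 copies. In the 100-base stretches printed here 5′ to 3′, the capitals mark CACGTG:
Lamp1, chr8:13159061-13159160, plus strand: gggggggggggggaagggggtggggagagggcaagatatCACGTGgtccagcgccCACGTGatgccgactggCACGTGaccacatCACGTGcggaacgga
Mcoln1, chr8:3500419-3500518, plus strand: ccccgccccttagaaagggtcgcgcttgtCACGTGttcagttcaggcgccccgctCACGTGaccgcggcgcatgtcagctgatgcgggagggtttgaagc
Atp6v0b, chr4:117887330-117887429, minus strand: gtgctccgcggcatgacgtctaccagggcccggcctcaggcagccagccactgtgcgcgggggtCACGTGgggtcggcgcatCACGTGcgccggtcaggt
Lgmn, chr12:102439093-102439192, minus strand: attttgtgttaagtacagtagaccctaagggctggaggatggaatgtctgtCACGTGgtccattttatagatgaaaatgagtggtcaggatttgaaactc

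Mcoln1, the lysosomal calcium channel, and Atp6v0b, a membrane subunit of the pump, each had 2 copies, and Lgmn had 1 copy in this stretch. The promoters of the score genes with an entry, those of Gpnmb, Csf1 and Acod1, had no CACGTG. The AP-1 sequence TGANTCA was found in 7.81% of all promoters and in that of Gpnmb, shown with its match in capitals and 30 bases in all:
Gpnmb, chr6:49036515-49036544, plus strand: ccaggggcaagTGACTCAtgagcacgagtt

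The cyclic AMP response element TGACGTCA was found in 1.79% of all promoters and in none of the promoters of the score genes, leading genes, lysosomal genes or V-ATPase subunits. A match is only a run of letters in a window, and no binding was measured.

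Genes of activation and survival were also higher. Of 16 NF-kB target genes 13 were at least 1.5-fold higher and 0 lower, with a median log2 difference of 0.85. Of 7 anti-apoptotic BCL2 family genes 6 were higher and 0 lower, and their sum was 1619.7 CPM against 856 in the other candidate cells. The 3 Bcl2a1 genes among them are near-identical copies, so their separate counts are uncertain. Of 14 genes in the lipid uptake and storage list 10 were higher and 0 lower. The list also holds genes of other functions, among them the secreted phosphoprotein Spp1. Spp1 was at 3781 against 755 and was detected in 56.4% of score-high cells. Of 14 Nrf2 target enzymes 10 were higher and 2 lower, and the ferritin genes Fth1 and Ftl1 made most of that sum.

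Of 12 cell cycle genes 11 were at least 1.5-fold lower and 0 higher, and their sum was 674 CPM against 1890. Of 18 TCA cycle enzymes 5 were lower and 0 higher, with a median log2 difference of -0.22.

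The leading genes outside the score, by size of the difference, were Gm6209 (log2 3.72), Ccl3, Ccl2, Gdf15 (2.77), Rnf128 (2.44), Slc11a1 (2.43), Ccrl2 (2.40), Spp1 (2.32), Egr3 (2.31) and Lgmn (2.23). Gdf15, a stress-induced cytokine of the TGF-β family, was at 73.6 CPM in the score-high cells of WT + PBS and 30.6 in those of WT + ISO. Slc11a1, the phagosomal metal transporter Nramp1, was at 35.1 and 47.7. Over all libraries Slc11a1 was as high in Retnlg-high cells (38.5 CPM) as in score-high cells (38.2). Lgmn was higher in C1q-high cells (86.0 CPM) than in score-high cells (76.1). Clec4n, the C-type lectin receptor dectin-2, was found in 82.3% of score-high cells and differed little between the WT libraries, at 1711 and 1763. Over all libraries it was at 1671 CPM in score-high and 1529 in C1q-high cells. Ccl2 (89.8 and 75.6) and Cxcl3 (62.6 and 58.2) were also close, and Scimp (82.4 and 166) was higher in C1q-high cells. Ccl3 (1134 and 125) and Spp1 (3781 and 1083) were lower there.

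The share of score-high cells was lower with ISO in WT. The WT + PBS library had 286 score-high cells among 2142 candidates, 13.4% (exact Clopper-Pearson interval 11.9 to 14.9). The WT + ISO library had 190 of 2243, 8.47% (7.35 to 9.70), and the intervals do not overlap.

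The log2 ratio of the shares, ISO over PBS, was -0.66 (Katz interval -0.91 to -0.41). Scoring cells thinned to 1000 UMIs chose 1040 cells, which hold 70.2% of the score-high cells, and gave -0.69. A stricter filter, which kept cells of 1000 or more genes with no more than 5% mitochondrial UMIs, gave -0.80. Requiring at least 3 of the 5 genes gave -0.42, with an interval from -0.86 to 0.03 that includes no change. With 1 library per group, a difference between cultures cannot be told apart from one of treatment.

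Both ends of the S100 range were lower with ISO. The S100-low cells were 6.30% of candidate cells with PBS and 3.48% with ISO, a log2 ratio of -0.86 (-1.25 to -0.46). The S100-high cells were 7.05% and 4.99%, a log2 ratio of -0.50 (-0.84 to -0.16). C1q-positive cells, which the rule leaves out, were 3.08% and 0.928% of the WT cells passing the filters and were thus also fewer with ISO.

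**Figure D3:**
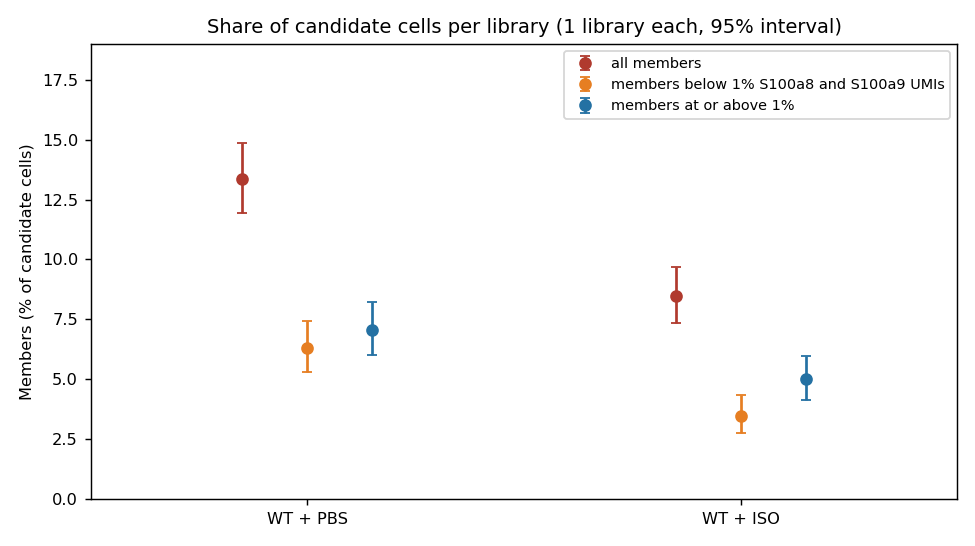
Score-high cells ("members") as a percent of candidate cells in the 2 WT libraries, for all of them and for those below and at or above 1% S100a8 and S100a9 UMIs, with exact 95% binomial intervals. The share of all score-high cells is 13.4% in WT + PBS and 8.47% in WT + ISO.

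To compare expression, the UMIs of the score-high cells were summed per library, giving 1740102 UMIs for WT + PBS against 1404502 with ISO. Among 6575 genes with at least 50 UMIs over both libraries, 4.64% were at least 1.5-fold higher with ISO and 3.95% at least 1.5-fold lower. The median gene did not shift, with a log2 ratio of 0.00. These percentages are the background for the list counts that follow. The lists that follow keep their score genes, which chose the cells, so the part of those genes in a count or sum is only a description.

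The 5 score genes were lower with ISO as a sum, 1420 against 2388 CPM (log2 -0.75). The log2 ratio was -0.38 with every cell weighted equally and -1.22 with at least 3 of the 5 genes required. The score genes chose the cells, so their levels are a description. Csf1 was at 211 CPM in WT + PBS and 104 in WT + ISO, a log2 ratio of -1.02, and the other candidate cells gave -1.005.

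Ccl4 was at 1549.9 and 871 CPM (log2 -0.83). Of its 2697 UMIs in WT + PBS, 788 came from 3 cells, and with every cell weighted equally the log2 ratio was -0.11. Acod1 was at 116 and 88.3 CPM (log2 -0.39), and with cells weighted equally its log2 ratio was -0.07. The other candidate cells gave 0.30.

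Gpnmb was at 336 and 247 CPM, a log2 ratio of -0.44, and Atp6v0d2 at 175 and 110.4, a log2 ratio of -0.67. With cells weighted equally the ratios were -0.84 for Gpnmb and -0.44 for Atp6v0d2. For Gpnmb the S100-high cells went against the whole, with a log2 ratio of 0.34, while the S100-low cells gave -1.04. For Atp6v0d2 the S100-low cells gave -1.25 and the S100-high cells 0.06.

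Genes of the hypoxia response were lower with ISO. These genes are induced by the transcription factor HIF-1 and serve glycolysis, lactate export and mitophagy. Of 15 tested, 5 were at least 1.5-fold lower and 0 higher, with a median log2 ratio of -0.47 against 0.00 over all genes. The list's sum was 4760 CPM in WT + PBS and 3525 in WT + ISO, a log2 ratio of -0.43 (exact counting interval -0.48 to -0.38).

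Ero1l, an oxidase of the endoplasmic reticulum, was at 388 and 222 CPM, a log2 ratio of -0.81 (-1.005 to -0.61). Egln3, the oxygen sensor PHD3, was at 342 and 217 (log2 -0.65). Bnip3, a mitophagy receptor, was at 114 and 61.2 (log2 -0.89). For all 3 genes the counting intervals of the libraries lie apart. The share of all tested genes with intervals apart is not given here, so nothing is read from this. With every cell weighted equally, where 20% of all tested genes were past 1.5-fold, Bnip3 gave -1.54. Ero1l (-0.57), Egln3 (-0.46) and Hilpda (-0.13) then fell short of 1.5-fold.

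Ndrg1, at 69.0 and 44.9 CPM (log2 -0.62), and Hilpda, an inhibitor of lipid droplet breakdown, at 74.7 and 49.1 (-0.60), were the other genes past 1.5-fold. The glycolytic enzymes Ldha (-0.26) and Pgk1 (-0.38) and the cytokine Mif (-0.51) did not pass it. The other candidate cells also had lower levels, with a log2 ratio of the list's sum of -0.35.

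Immediate early genes, which respond within minutes to signals that include cyclic AMP through CREB, gave 4 of 14 at least 1.5-fold lower and 0 higher. The 4 were Fos, Fosb, Dusp1 and Sik1. Fos, a subunit of AP-1, was at 353 CPM in WT + PBS and 201 in WT + ISO (log2 -0.81). Dusp1, a MAP kinase phosphatase, was at 254 and 136 (log2 -0.90). The sum of the list had a log2 ratio of -0.24, which became 0.13 when members were required to hold at least 3 of the 5 score genes, and the other candidate cells gave -0.29.

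Of 7 growth factors and inflammatory cytokines tested, the score gene Csf1 alone was past 1.5-fold, so no gene outside the score was. The sum, which includes Csf1, had a log2 ratio of -0.34, against -0.45 in the other candidate cells. Il1b, interleukin 1β, was at 353 and 256 CPM (log2 -0.46), and 182 of its 360 UMIs in WT + ISO came from 3 cells. Its log2 ratio was -1.15 without the 3 richest cells of each library and -1.46 with every cell weighted equally, both past 1.5-fold. In that equal weighting 20% of all tested genes were past 1.5-fold. Tnf was at 66.7 and 47.7 (log2 -0.48).

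Among chemokines, 2 of 9 tested were at least 1.5-fold higher (Cxcl3 and Cxcl10) and 3 lower (Ccl3, Ccl4 and Ccl17). Of the lower genes Ccl4 is a score gene, so nothing is read from its place in this count. Ccl3 was at 1423 and 790.3 CPM (log2 -0.85, and -0.52 with cells weighted equally), and in the other candidate cells its log2 ratio was 0.15. Cxcl3 went the other way, at 27.0 and 145 (log2 2.43). Ccl17 and Cxcl10 rested on few cells, with 100 of 101 Ccl17 UMIs in WT + PBS and all 41 Cxcl10 UMIs in WT + ISO in 3 cells.

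Anti-apoptotic BCL2 family genes had a summed level of 1708 and 1391 CPM, and 0 of 6 tested were past 1.5-fold. The log2 ratio of the sum was -0.30, against -0.43 in the other candidate cells. Mcl1 was at 619.5 and 483 CPM (log2 -0.36). The genes of the pro-apoptotic intrinsic pathway summed to 960.3 and 1109 CPM (log2 0.21), and Bax, the most abundant of them, was at 350.0 and 414 (log2 0.24).

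Several Nrf2 target enzymes were higher with ISO. Of 12 tested 3 were at least 1.5-fold higher (Hmox1, Gclm and Srxn1) and 1 lower (Gclc). Hmox1, heme oxygenase 1, was at 187 and 409 CPM (log2 1.13, interval 0.93 to 1.33), and the other candidate cells gave 1.00. Gclm, a subunit of the first enzyme of glutathione synthesis, was at 297 and 492 (log2 0.73), while Gclc, the other subunit, was at 48.8 and 32.0.

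NF-kB target genes differed little. Of 15 tested 1 (Bcl3) was at least 1.5-fold higher and 0 lower, with a median log2 ratio of -0.07. Nfkbia, the inhibitor IκBα, was at 362 and 355 CPM (log2 -0.03), and Relb at 35.1 and 36.3 (0.05). In the other candidate cells the list's sum gave -0.22, against -0.06 in score-high cells.

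Lysosomal and V-ATPase genes differed little between treatments. Of 21 lysosomal genes tested 1 was past 1.5-fold, and of 16 V-ATPase subunits 1. The latter was the score gene Atp6v0d2, so no subunit outside the score passed it. The lysosomal list includes the score gene Gpnmb. The log2 ratios of the sums were -0.05 for lysosomal genes and -0.09 for the V-ATPase, and the signs turned under other ways of choosing or weighting the cells. The exceptions were Ctsl, cathepsin L, at 196 and 407 CPM (log2 1.05), and Atp6v0d2, given above. Psap was at 2681 and 1939 (log2 -0.47).

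Cell cycle genes, already low in score-high cells, were at 732 and 785 CPM as a sum, with 0 of 12 past 1.5-fold. Mki67, the proliferation marker Ki-67, was at 73.6 and 74.0 CPM (log2 0.01). In the other candidate cells the sum had a log2 ratio of 0.14.

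The lipid uptake and storage list, which also holds genes of other functions such as Mmp12 and Spp1, gave 3 of 12 at least 1.5-fold higher and 0 lower. The 3 were Mmp12, Trem2 and Abca1. The log2 ratio of the list's sum was 0.03, against -0.53 in the other candidate cells. The sum in score-high cells turned negative under 8 of 16 alternatives, down to -0.22 with at least 3 of the 5 score genes required, so its sign is not settled. Mmp12, the macrophage elastase, was at 468 and 1062 CPM (log2 1.18), while in the other candidate cells its log2 ratio was -1.25. Trem2, a lipid receptor of macrophages, was at 83.3 and 132 (log2 0.66), against -0.89 in the other candidate cells. The macrophage markers summed to 700.0 and 792 CPM in the score-high cells, with Cd68 the most abundant, and the dendritic cell markers to 728 and 934. Their part in these values was not tested.

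**Figure D4:**
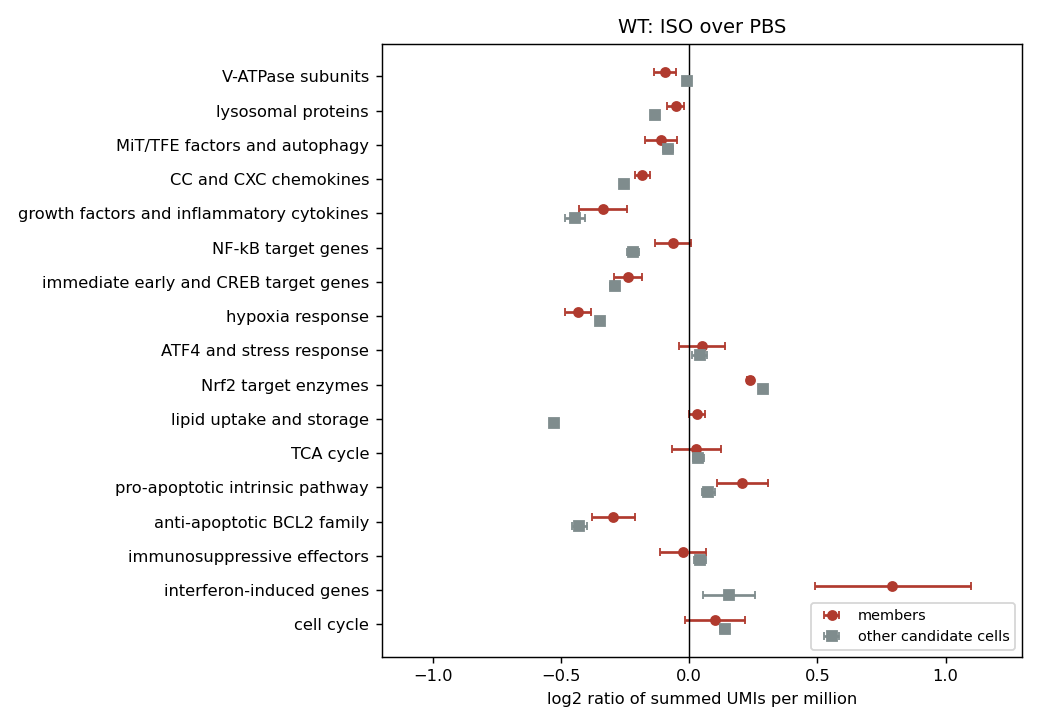
log2 ratio, WT + ISO over WT + PBS, of the summed CPM of each gene list in score-high cells ("members") and the other candidate cells, with exact 95% counting intervals. The hypoxia response lies at -0.43 in score-high cells, and the lipid list at 0.03 in score-high and -0.53 in the other candidate cells, where the sign of the first turned under 8 of 16 alternatives.

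The lists that lay near 0 included the TCA cycle enzymes, with a log2 ratio of 0.03 and 0 genes past 1.5-fold, and MiT/TFE factors and autophagy genes, with -0.11 and 0 genes past it. Immunosuppressive effectors gave -0.02. ATF4 and stress response genes gave 0.05, with Asns and Phgdh, enzymes of asparagine and serine synthesis, past 1.5-fold and lower (log2 -1.13 and -0.67). The interferon-induced genes had only 3 genes tested, with a log2 ratio of the sum of 0.79 that rested in part on Cxcl10.

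Among the genes of at least 200 UMIs with the largest increases with ISO, Ly6a, the surface protein Sca-1, was at 27.0 and 258 CPM (log2 3.25). Of its 362 UMIs in WT + ISO, 134 came from 3 cells. Its log2 ratio was 3.31 without the 3 richest cells of each library and 1.31 with every cell weighted equally. Ifitm1, an interferon-induced membrane protein, was at 1567 and 3601 (log2 1.20), and in the other candidate cells it gave 0.05. Mmp8, neutrophil collagenase, was at 894 and 2229 (log2 1.32), and in the other candidate cells it gave 0.71.

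Ly6g (log2 1.77), Slc8a1 (1.53), Ifitm6 (1.41) and the genes given above, Cxcl3 and Mmp12, completed this set, with Elane (1.61) and Prtn3 (1.16). The last 2, both proteases of early neutrophil granules, rested on few cells, since 160 of 194 Elane UMIs and 171 of 227 Prtn3 UMIs in WT + ISO came from 3 cells. Without the 3 richest cells of each library their log2 ratios were -0.10 and -0.09.

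The largest decrease was that of the heat shock gene Hspa1a, which 3 cells of WT + PBS carried almost alone, with 214 of 216 UMIs. Fgf13 was at 222 and 76.9 CPM (log2 -1.53), and 195 of 386 UMIs in WT + PBS came from 3 cells, with a log2 ratio of -1.40 when the 3 richest cells of each library were left out. F13a1, the factor XIII subunit of monocytes, was at 294 and 125 (log2 -1.23), and 250 of 512 UMIs in WT + PBS came from 3 cells, with a ratio of -1.35 without the 3 richest and -0.82 with cells weighted equally. Fn1, fibronectin, was at 233 and 117 (log2 -0.99), and Tgm2, transglutaminase 2, at 132 and 67.6 (log2 -0.96). Gbe1, the glycogen branching enzyme, was at 178 and 91.1 (log2 -0.97). Chst11, Gtdc1, B930036N10Rik and Tex14 had log2 ratios from -0.99 to -0.93. With cells weighted equally, where 20% of all tested genes were past 1.5-fold, Gbe1 and Chst11 gave -0.58 each, just short of it. B930036N10Rik then gave -1.64 and Tex14 -1.56.

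**Figure D5:**
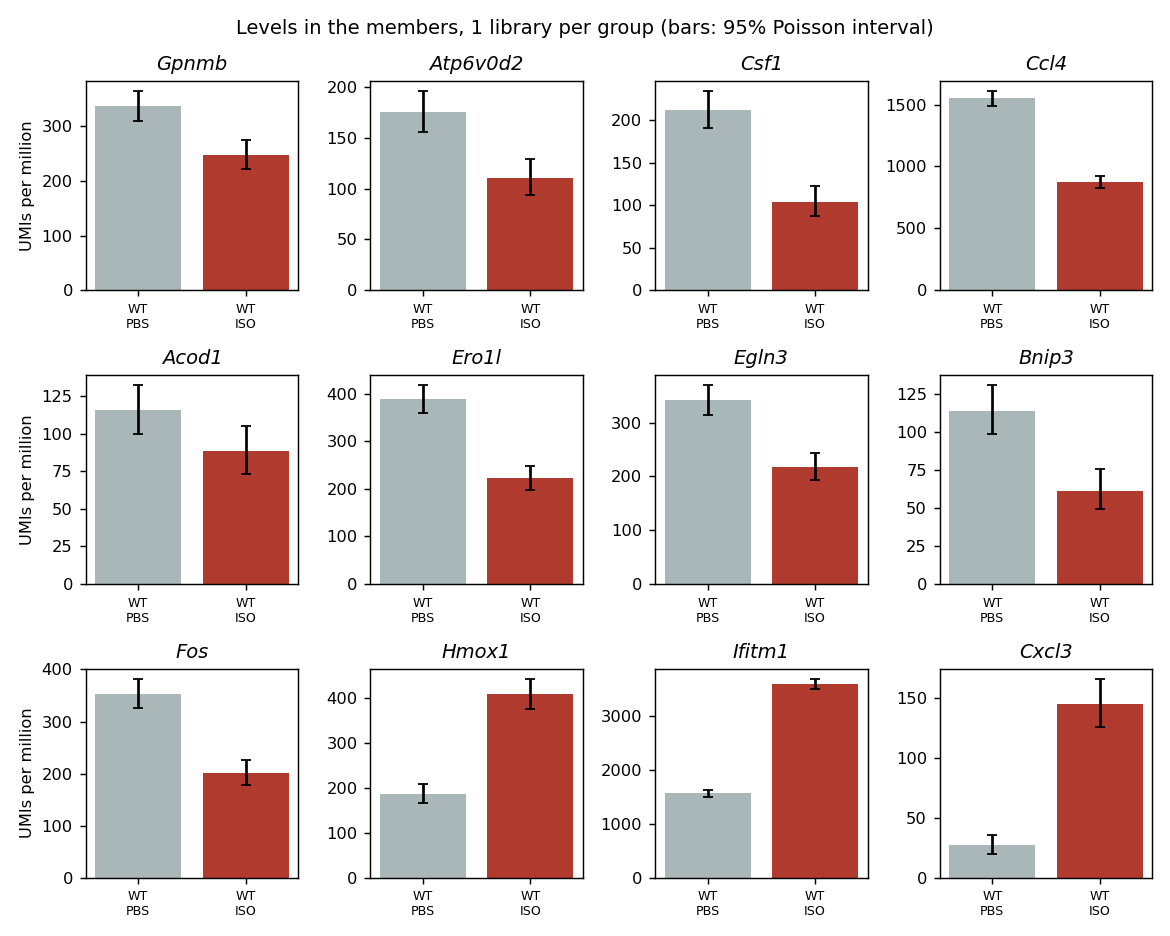
CPM of 12 genes in the score-high cells of the 2 WT libraries, as bars with exact 95% Poisson intervals, 1 library per group. The 5 score genes, Ero1l, Egln3, Bnip3 and Fos are lower in WT + ISO, and Hmox1, Ifitm1 and Cxcl3 are higher.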

How the data were processed

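Per the labels, the authors processed 10x reads with Cell Ranger 6.0.0 and the mm10 build and used Seurat, while the file headers name Cell Ranger 7.0.0. The deposited matrices hold raw UMI counts of 32285 genes and 12 multiplexing tags per cell, 1 matrix per group. Groups were taken from sample titles. Cells were filtered, scored and selected as described with the results. UMIs were summed over cells per library and given per 1000000 (CPM). Ratios carry exact conditional binomial intervals, shares Clopper-Pearson intervals and ratios of shares Katz intervals, all at 95%. Python 3.11.15, numpy 2.4.6 and scipy 1.17.1 were used, and the code was tested on simulated data. Shares of cells with a UMI are at full depth unless given as thinned to 1000 UMIs. Score members and gene lists were chosen with earlier results of these data known. Named genes were the 5 score genes, list members, the 20 genes with the largest ratio to the other candidate cells among genes in at least 10% of score-high cells, and, among genes with at least 200 UMIs, the 10 largest increases and decreases with ISO in WT, leaving out mitochondrial and score genes. The comparison of the other genotype and some genes of the lists are not reported here. Alternatives varied filters, score genes, cut, depth, gene minimum, fold and cell weighting.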

Additional observations from a re-analysis of the deposited data

How the results depend on the processing

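No paired analysis was possible because a group consists of a single library. Of 47 recomputed main values 38 stayed within the counting interval or within 1.5 times. The WT share ratio was -0.96 for the top 5% of cells. The ratio of median UMIs was 0.405 without Ccl4 and 0.932 with at least 3 of the 5 genes required. The percent of genes at least 1.5-fold apart was 13.4 for the top 5%, 12.9 with at least 3 of the 5 genes, 20% with cells weighted equally, 3.76 for genes of at least 200 UMIs, 14.8 for at least 20 UMIs and 1.44 at 2-fold. The log2 ratio turned sign for the V-ATPase with equal weight (0.059), for lysosomal genes in the top 5% (0.025) and for immediate early genes with at least 3 of the 5 genes (0.13). Of 288 recomputed list sums 205 stayed within the counting interval. Sums near 0 changed sign under some of 16 alternatives: lipid genes under 8 (lowest -0.22), immunosuppressive effectors under 6 (highest 0.12), NF-kB targets under 5 (highest 0.068), the cell cycle under 4 (lowest -0.31), the TCA cycle under 3 (lowest -0.027) and ATF4 genes under 1 (-0.13). Without the 3 richest cells of each library, a check added after the data were seen, it turned for Elane (-0.10) and Prtn3 (-0.088). The cause was not tested. Counts limit the genes of fewest UMIs, and the spread between cultures is unknown.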

Other observations

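Markers of eosinophils summed to 120.7 CPM in the score-high cells of WT + PBS, mostly Prg2, the eosinophil granule major basic protein, and to 6.41 CPM in those of WT + ISO. All 175 Prg2 UMIs of score-high cells lay in 6 cells, 172 of them in 3 S100-low cells. Markers of erythroid cells and megakaryocytes, of which the platelet chemokine Pf4 made 96.3%, summed to 9.77 CPM with PBS against 84.0 with ISO in WT, and stood at 515 CPM in C1q-high cells. Markers of basophils and mast cells summed to 19.4 CPM over all score-high cells, with Kit as the most abundant. Monocyte markers summed to 1551 CPM in score-high and 1803 CPM in the other candidate cells. Specific granule markers summed to 9481 against 25151 CPM and azurophil granule markers to 2774 against 5616 CPM.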
